A study of Mus musculus with 24 samples.

Results

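The 37 genes of the mouse mitochondrial genome were followed in small RNA libraries of embryonic stem cells and neural progenitor cells. The members were the rows of the deposited count table that matched GENCODE M21 genes on the mitochondrial chromosome (chromosome M, GRCm38), all with symbols that start with mt-. They were 2 rRNA genes, 22 tRNA genes and 13 protein-coding genes, of 55335 rows in all. Together they held 324663 of 25027120 counts, or 1.30%. A count was found for 26 members, and 11 members were at 0 in every library.

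The study sequenced 24 libraries in 12 groups of 2. The stem cells (mESC) and the progenitors derived from them (NPC) were each taken in 6 genotypes of Htt, the gene mutated in Huntington's disease. The genotypes were wild type (WT), Htt knockout (KO), and heterozygous Hdh CAG knock-in lines (Hdh is the older name of mouse Htt) called Q20, Q50, Q92 and Q111 after the length of the CAG repeat. The titles give 92 repeats for the Q92 line, and the growth protocol gives 89. The mESC were grown with leukemia inhibitory factor on gelatin with a feeder layer of irradiated CF-1 mouse embryonic fibroblasts, and the NPC were kept on laminin with FGF and EGF. The labels call the libraries biological samples but do not say whether they were separate clones or cultures of a line, so the p-values measure the spread between these libraries. The lines carry no deletion or treatment that the labels give as common to all groups.

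Library totals lay between 642384 and 2360434 counts in mESC and between 342022 and 682113 in NPC, from reads of 50 bases, of which the labels state about 15 M per library. A floor of 3 counts corresponded to 1.27 to 4.67 CPM (counts scaled to a library total of 1000000) in mESC and to 4.40 to 8.77 in NPC, for counting error only. All further CPM carry the scaling between libraries described with the first comparison, unless library totals are named. The summed level of 14 embryonic stem cell markers was 991 to 2509 CPM in mESC, 337 and 343 in the 2 NPC Q20 libraries, and at most 2.33 in the other 10 NPC libraries. The 12 neural progenitor markers summed to 2.60 to 18.3 CPM in mESC and to 155 to 1072 in NPC, and the 12 feeder fibroblast markers to at most 11.8 in any library. Of the feeder markers, Postn, Dcn, Mir199a-1, Mir199a-2 and Mir214 were at 0 in all libraries, as were Mir9-2 and Mir124a-1 of the neural progenitor markers. Htt itself had 1 to 3 counts in the KO libraries, 2 to 9 in WT and 0 to 9 in the knock-in libraries, too few to check the genotype labels.

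The mitochondrial genome is a small circle that is read on both strands as long precursor transcripts. The tRNAs lie between most of the rRNA and mRNA genes, and their excision by the mitochondrial RNase P and the tRNA 3′ processing enzyme frees the rRNAs and mRNAs. The rRNAs and tRNAs serve the mitochondrial ribosome, which makes only subunits of the respiratory chain and of ATP synthase. Most genes, both rRNAs included, are encoded on the heavy strand, while mt-Nd6 and a minority of the tRNAs are encoded on the light strand. In a small RNA library a count is a short read that falls in a gene, so a count for an rRNA or mRNA is a fragment of it. A count for a tRNA may be the whole molecule or a piece, which the table does not tell apart.

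The tRNAs on which the results turn are shown first, from the GENCODE M21 transcripts, as DNA letters with the anticodon in capitals. The anticodon was found as the middle 3 bases of a 7-base loop closed by a stem with at least 4 of 5 pairs. The first 3 are the tRNAs with the most counts. mt-Tm is shown for its spread among mESC libraries, mt-Tp for its difference between cell types, and mt-Tl1 as the tRNA directly after mt-Rnr2.
mt-Ts2 (serine, chrM:11613-11671, plus strand): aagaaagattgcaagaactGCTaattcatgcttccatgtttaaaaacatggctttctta
mt-Tq (glutamine, chrM:3772-3842, minus strand): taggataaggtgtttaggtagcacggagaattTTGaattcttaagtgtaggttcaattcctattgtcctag
mt-Tv (valine, chrM:1025-1093, plus strand): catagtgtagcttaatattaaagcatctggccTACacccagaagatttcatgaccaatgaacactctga
mt-Tm (methionine, chrM:3845-3913, plus strand): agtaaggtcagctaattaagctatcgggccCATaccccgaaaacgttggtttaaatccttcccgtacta
mt-Tp (proline, chrM:15356-15422, minus strand): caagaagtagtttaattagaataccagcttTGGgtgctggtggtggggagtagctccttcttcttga
mt-Tl1 (leucine, chrM:2676-2750, plus strand): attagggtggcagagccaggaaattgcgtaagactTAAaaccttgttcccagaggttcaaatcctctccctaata
With its 59 bases mt-Ts2 was the shortest of the 22, and mt-Tl1 with 75 bases the longest. The plus strand of the reference carries the genes of the heavy strand, and the minus strand those of the light strand.

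Counts were spread very unevenly over the genome. Per kilobase of gene and in CPM, mt-Ts2 averaged 37490 ± 23133 (SD, n = 12) in mESC and 41011 ± 17339 in NPC. The mRNA mt-Nd2, a subunit of respiratory complex I, averaged 93.7 ± 51.6 and 182 ± 123 per kilobase. The 12S rRNA mt-Rnr1 averaged 1302 ± 431 per kilobase in mESC and 6009 ± 2885 in NPC, and the 16S rRNA mt-Rnr2 averaged 2060 ± 693 and 8218 ± 2703. Both rRNAs thus lay below mt-Ts2 and above mt-Nd2 in mean level per length in each cell type. Among tRNA counts, mt-Ts2 took 46.7% ± 6.01 in mESC and 32.4% ± 6.94 in NPC, mt-Tq 18.0% ± 9.72 and 39.4% ± 7.99, and mt-Tv 21.6% ± 5.31 and 11.7% ± 3.40 (SD, n = 12 libraries each).

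The members without counts were not scattered. The GENCODE annotation holds 7 unprocessed pseudogenes on chromosome 1 (24611535 to 24616197, minus strand) that follow the order of positions 6394 to 11042 of chromosome M, a stretch of 4649 bases. Of the 11 members that lie wholly inside this stretch, 9 were at 0 in all 24 libraries and the other two, mt-Nd3 and mt-Tr, had 8 and 5 counts in all. These 11 were the mRNAs mt-Co2, mt-Atp8, mt-Atp6, mt-Co3, mt-Nd3 and mt-Nd4l and the tRNAs mt-Ts1, mt-Td, mt-Tk, mt-Tg and mt-Tr. Of the 24 members outside it, 2 were at 0, the tRNAs mt-Ty and mt-Th. mt-Co1 and mt-Nd4, which lie partly inside, had counts.

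The shared sequence was measured as 30-base stretches of a member that also occur in a transcript of a nuclear gene. The share was 100% for mt-Co2, 99.5% for mt-Atp6, 99.9% for mt-Co3, 98.9% for mt-Nd4l and 98.1% for mt-Nd3. The other mRNA wholly inside the stretch, mt-Atp8, shared only 8% and was also at 0. The share was 64.8% for mt-Co1 and 62.8% for mt-Nd4, which lie partly inside. It was 0% for mt-Rnr1, mt-Nd1, mt-Ts2, mt-Tq, mt-Tv and mt-Tm, 2.83% for mt-Rnr2, 14.1% for mt-Nd2 and 17.5% for mt-Nd5. The tRNAs inside the stretch have no annotated pseudogene partner, so their shared letters could not be measured from transcripts. How reads that match several places were treated is not given in the sources used here, so a member at 0 in this stretch is not a measurement that its RNA was absent.

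Of the 7 pseudogenes, Gm28438 held all the counts: 5672, against 8 for mt-Nd3, the complex I subunit gene that it copies. The first 60 bases of mt-Nd3 and the matching bases of Gm28438 show where they differ, with the differing base in capitals.
mt-Nd3 (chrM:9459-9518, plus strand): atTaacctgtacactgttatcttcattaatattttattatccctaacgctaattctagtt
Gm28438 (chr1:24613060-24613119, minus strand): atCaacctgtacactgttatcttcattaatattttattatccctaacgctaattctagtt
The difference in these bases is T9461C, with the mitochondrial base first, the position on chromosome M, then the pseudogene base. Every library had between 88 and 442 counts for Gm28438. At 12 NPC libraries its level was 184 to 1267 CPM with a median of 476, and at 12 mESC libraries 59.1 to 411 with a median of 137. The ranges overlapped, and the fitted difference was 1.06 ± 0.29 (log2, SE; adjusted p = 0.00292). Whether these reads came from the chromosome 1 copy or from mitochondria was not tested, and Gm28438 is not counted among the 37 members.

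**Figure D1:**
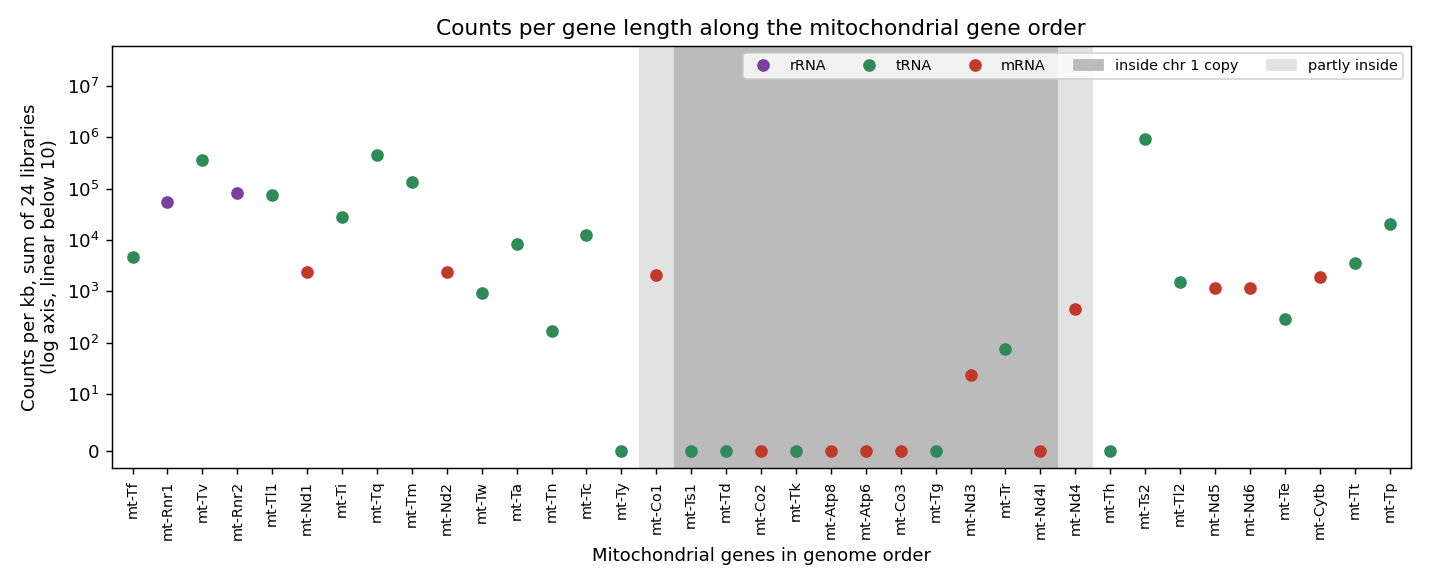
Counts per kilobase of gene, summed over 24 libraries (y axis, logarithmic above 10 and linear below), for the 37 mitochondrial genes in genome order (x axis), coloured by class. Dark grey marks the 11 genes wholly inside the stretch copied on chromosome 1, of which 9 are at 0, and light grey the 2 genes partly inside it.

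Mitochondrial RNA took a larger share of the NPC libraries. Its share was 0.491% to 1.86% of the counts in the 12 mESC libraries (mean 0.892% ± 0.402, SD) and 1.99% to 3.77% in the 12 NPC libraries (mean 2.90% ± 0.628). The lowest NPC library lay above the highest mESC library. The rRNA share differed most: it was 0.196% to 0.863% in mESC and 1.35% to 2.89% in NPC, with no overlap. The mRNA share was 0.0133% to 0.0888% in mESC and 0.0799% to 0.159% in NPC, and the tRNA share 0.282% to 1.43% and 0.495% to 1.09%; both of these overlapped. Of the mitochondrial counts, rRNA made up 47.1% ± 11.03, tRNA 47.7% ± 12.9 and mRNA 5.28% ± 2.38 in mESC. In NPC rRNA made up 68.8% ± 3.93, tRNA 27.3% ± 3.97 and mRNA 3.98% ± 1.29 (SD, n = 12 in each cell type). The 11 members wholly inside the stretch copied on chromosome 1, mRNAs and tRNAs, gave only 13 counts in all. The 5672 counts of Gm28438 are in no class. The class shares thus cover the mRNAs and tRNAs only in part.

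**Figure D2:**
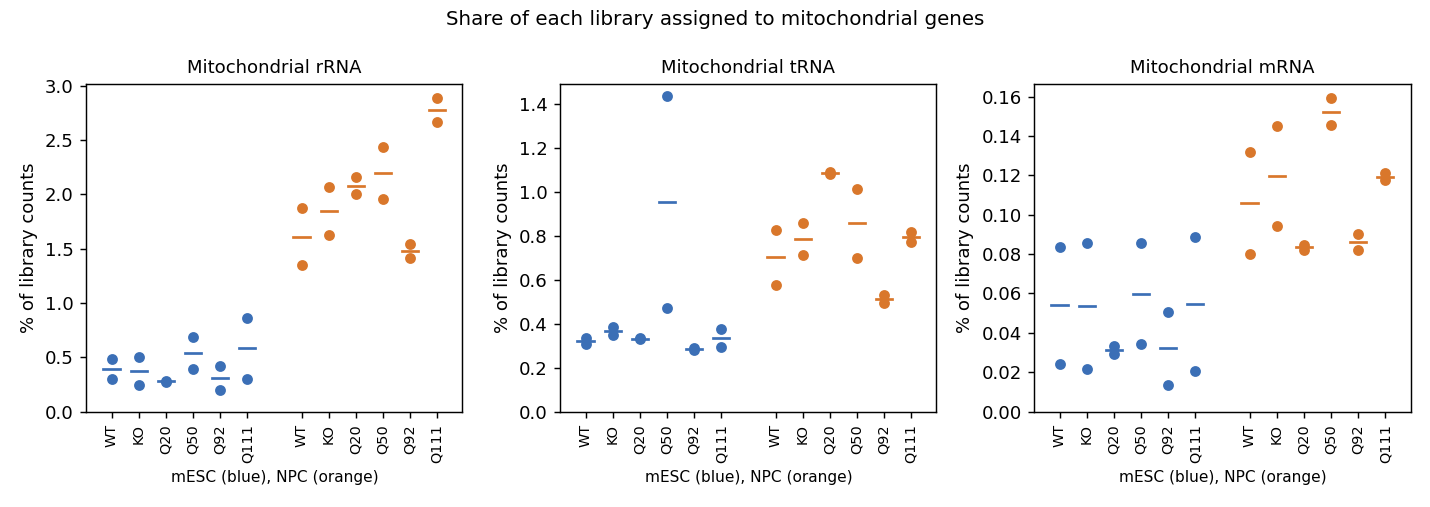
Share of library counts (y axis, %) assigned to mitochondrial rRNA, tRNA and mRNA genes in each library (points) by genotype (x axis), with the mean of the 2 libraries as a bar; mESC in blue, NPC in orange. The rRNA share is above that of every mESC library in all 12 NPC libraries, and the mESC Q50 group holds the highest mESC tRNA share, 1.43%.

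The first comparison asked how the members differ between NPC and mESC, averaged over the 6 genotypes. Of 20 members tested, 14 were higher in NPC and 0 were lower (edgeR quasi-likelihood test, adjusted p under 0.05 over 904 genes). Over all 904 genes, 30.4% were called higher and 28.0% lower. The members had a median difference of 0.80 on the log2 scale, against -0.02 over all genes. All 24 libraries shared the fit, and levels below are CPM on its scale (trimmed mean of M values, TMM). The scaling factors ran from 0.706 to 1.14 in mESC and from 0.751 to 1.51 in NPC. With library totals alone, 16 members were higher and 0 lower, where 39.2% of all genes were higher and 17.6% lower. The median over all genes then moved from -0.02 to 0.33. In bulk libraries a change in the RNA of each cell and a change in how many cells carry it cannot be told apart. Depth also differed with cell type: totals were 342022 to 682113 counts in NPC and 642384 to 2360434 in mESC. The part of depth in the differences between NPC and mESC was not tested.

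Both rRNAs, the RNA cores of the small and large mitochondrial ribosomal subunits, were higher. mt-Rnr1 (chrM:70-1024) ranged from 779 to 2177 CPM in mESC with a median of 1141, and from 2892 to 10950 in NPC with a median of 4828. The groups did not overlap, and the difference was 4.27-fold (log2 2.10 ± 0.15 SE, adjusted p = 4.93e-11). mt-Rnr2 (chrM:1094-2675) ranged from 1981 to 5900 CPM in mESC with a median of 2814, and from 6746 to 18992 in NPC with a median of 12804. Again the lowest NPC library lay above the highest mESC library, with a difference of 3.86-fold (log2 1.95 ± 0.15, adjusted p = 2.06e-10). Of all 904 genes, 7.08% had all 12 NPC libraries above all 12 mESC libraries. Within rRNA counts the split hardly moved: mt-Rnr1 made up 27.7% ± 2.60 in mESC and 29.8% ± 4.48 in NPC (SD, n = 12).

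The tRNAs did not move as a block. Of 11 tested, 6 were higher, 0 were lower and 5 did not pass. The 4 tested tRNAs of the light strand were all called higher, with a median difference of 1.72 (log2), while 2 of the 7 tested tRNAs of the heavy strand were, with a median of -0.03. The difference between the strands was not tested. Counts were found for 10 of the 14 tRNAs of the heavy strand and for 6 of the 8 of the light strand.

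mt-Tp, the proline tRNA of the light strand, was 12.4 to 64.7 CPM in mESC (median 25.1) and 85.1 to 280 in NPC (median 141), without overlap. Its difference was the largest of the tested members, 5.25-fold (log2 2.39 ± 0.21, adjusted p = 1.08e-09). mt-Tq, the glutamine tRNA, was 390 to 2092 CPM in mESC (median 652) and 1215 to 4550 in NPC (median 3112). The groups overlapped only through the 2 mESC Q50 libraries, at 1753 and 2092, and the difference was 3.75-fold (log2 1.91 ± 0.16, adjusted p = 5.42e-10). The cysteine tRNA mt-Tc rose by 1.53 ± 0.22 and the alanine tRNA mt-Ta by 0.59 ± 0.22 on the log2 scale (adjusted p = 1.90e-06 and 0.0271). mt-Tq overlaps mt-Ti on the opposite strand by 3 bases, and whether strand was used in counting is not given in the sources used here.

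On the heavy strand, mt-Tl1, a leucine tRNA, was 138 to 307 CPM in mESC (median 193) and 198 to 696 in NPC (median 356). The groups overlapped, and the difference was 1.84-fold (log2 0.88 ± 0.18, adjusted p = 0.000173). mt-Tm, the methionine tRNA, was 82.3 to 1907 CPM in mESC (median 158) and 191 to 675 in NPC (median 399), with the mESC maximum in Q50 replicate 1. Its difference was 0.83 ± 0.31 (log2, adjusted p = 0.0235); with only the first mESC replicates, and without Q20, it was -0.06. mt-Ts2, which recognises the AGY serine codons and had the most tRNA counts, was 1431 to 6512 CPM in mESC (median 1860) and 846 to 4023 in NPC (median 2263). Its difference was 0.06 ± 0.17 (log2, adjusted p = 0.768). The direction for mt-Ts2 depended on the setting: it was called higher in NPC with library totals (0.41) and without mESC Q50 replicate 1 (0.31), and lower with no filter and the scaling recomputed (-0.53). The other heavy-strand tRNAs that did not pass were mt-Tv at -0.33 ± 0.21, mt-Ti at -0.31 ± 0.19, mt-Tt at -0.47 ± 0.36 and mt-Tf at -0.03 ± 0.29. Against the first mESC replicates alone, without Q20, mt-Ts2, mt-Tv and mt-Ti were called lower in NPC (log2 -0.36, -0.73 and -0.83, adjusted p = 0.00478, 1.15e-05 and 0.000121). Against the second they did not pass, at 0.17, 0.21 and -0.05, while mt-Tt was called lower there (-0.83, adjusted p = 0.0290) and was at 0.52 against the first.

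Of the 7 mRNAs tested, 6 were called higher in NPC. Of these 6, mt-Nd2, mt-Nd4, mt-Nd5 and mt-Nd6 lost the call against the second mESC replicates alone, without Q20 (log2 0.15, 0.32, 0.01 and 0.18, adjusted p = 0.529, 0.317, 0.988 and 0.507), while mt-Nd1 and mt-Co1 kept it (0.68 and 0.71). mt-Nd1, a complex I subunit, was 18.8 to 142 CPM in mESC (median 65.7) and 127 to 358 in NPC (median 175), a 2.66-fold difference (log2 1.41 ± 0.31, adjusted p = 0.000421). mt-Co1, the catalytic subunit of cytochrome c oxidase, was 53.0 to 200 CPM in mESC (median 96.8) and 102 to 470 in NPC (median 266), a 2.45-fold difference (log2 1.29 ± 0.22, adjusted p = 2.46e-05). mt-Nd2 was 29.5 to 173 CPM in mESC (median 71.3) and 70.9 to 490 in NPC (median 153), a 1.70-fold difference (log2 0.77 ± 0.28, adjusted p = 0.0216). In all 3 the ranges of the cell types overlapped.

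The other complex I mRNAs had smaller counts. Of mt-Nd4, 63.6% of the bases lie in the stretch copied on chromosome 1, and the part of this in its level was not tested. The same holds for mt-Co1, which also lies partly inside. mt-Nd4 was 6.37 to 51.6 CPM in mESC (median 18.2) and 22.1 to 103 in NPC (median 30.9; log2 0.98 ± 0.32, adjusted p = 0.0123). mt-Nd5 was 34.2 to 154 CPM (median 66.5) and 73.4 to 255 (median 124; log2 0.62 ± 0.26, adjusted p = 0.0428). mt-Nd6, the mRNA of the light strand, was 11.4 to 41.7 CPM (median 23.6) and 21.6 to 68.3 (median 35.8; log2 0.68 ± 0.25, adjusted p = 0.0203). The mRNA of cytochrome b, mt-Cytb, was 32.9 to 191 CPM (median 68.8) and 71.1 to 280 (median 129), and did not pass (log2 0.62 ± 0.27, adjusted p = 0.0550). The call of mt-Nd5 was lost in 20 of 36 alternative fits and that of mt-Ta in 12, while both rRNAs, mt-Tp, mt-Tq and mt-Tc were called in all 36. In the WT libraries alone 6 members were called higher and 0 lower, against 14.3% of genes higher.

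**Figure D3:**
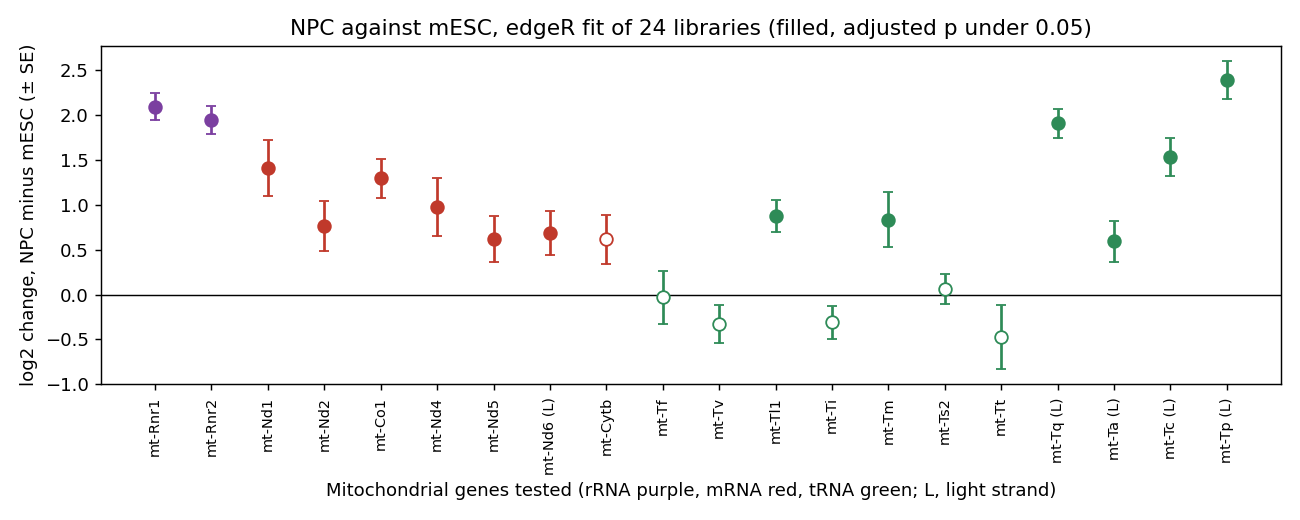
Fitted log2 difference between NPC and mESC with its standard error (y axis) for the 20 members tested (x axis), ordered by class and strand. Filled symbols mark the 14 members with an adjusted p under 0.05; the 4 tRNAs of the light strand (L) run from 0.59 to 2.39.

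The mESC libraries differed among themselves along their replicate numbers. In the 5 mESC genotypes other than Q20, all 7 tested mRNAs and both rRNAs were higher in every replicate 2 than in every replicate 1. The same held for the tRNA mt-Tt, while mt-Tv and mt-Tm were lower in every replicate 2. Over the 1766 genes tested in mESC, 9.00% lay above and 5.21% below in this way. The mRNAs had median ratios of replicate 2 to replicate 1 between 2.40 for mt-Co1 and 3.86 for mt-Nd1. mt-Nd2 was 29.5 to 67.2 CPM in the first replicates and 128 to 173 in the second. mt-Nd1 was 18.8 to 41.9 and 85.9 to 142, and mt-Cytb 32.9 to 63.8 and 115 to 191. The rRNAs had smaller ratios, 1.68 for mt-Rnr1 and 1.86 for mt-Rnr2.

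The Q20 mESC libraries did not follow this order: mt-Nd2 was 70.2 and 72.4 CPM and mt-Nd1 65.0 and 66.3 in their replicates 1 and 2. Set against the first mESC replicates alone, and without Q20, 13 members were higher in NPC and 3 lower, where 28.0% of all genes were higher and 31.2% lower. Among them mt-Nd2 was at 1.73 ± 0.20 and mt-Cytb at 1.43 ± 0.21 (log2). Set against the second replicates alone, 9 were higher and 1, mt-Tt, was lower, where 29.0% of all genes were higher and 28.1% lower. There mt-Nd2 was at 0.15 ± 0.19 and mt-Cytb at -0.03 ± 0.20. The rRNA difference was present against both, at 2.26 ± 0.11 and 1.66 ± 0.12 for mt-Rnr1. The second replicates of those 5 genotypes had 642384 to 1149003 counts in total and the first 2134729 to 2360434, and the part of depth in these differences was not tested.

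**Figure D4:**
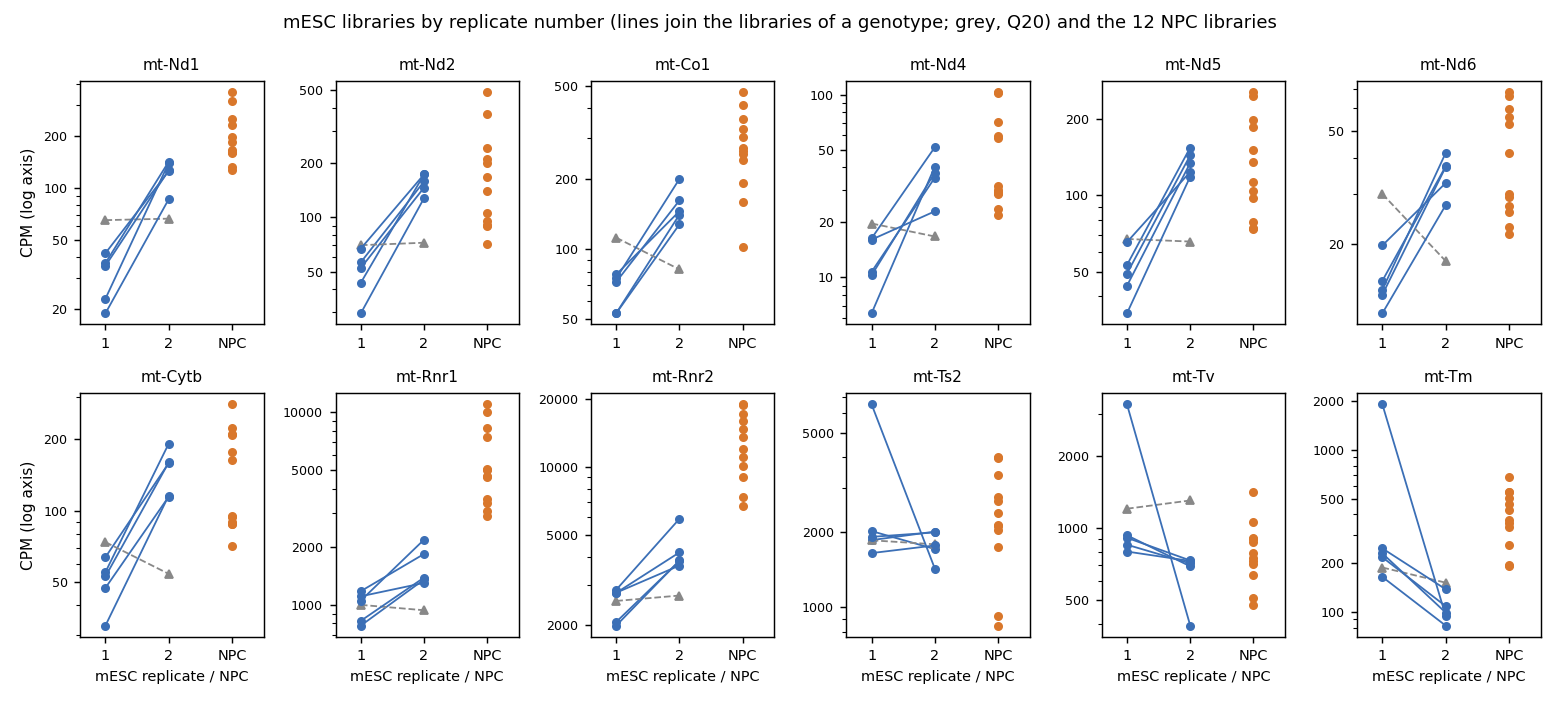
CPM (y axis, logarithmic) of 12 members in mESC replicates 1 and 2 and in the 12 NPC libraries (x axis). Blue lines join the 2 libraries of a genotype and grey dashed lines the Q20 libraries; the 7 mRNAs and 2 rRNAs are higher in replicate 2 in all 5 blue genotypes, and the top points of mt-Ts2, mt-Tv and mt-Tm are Q50 replicate 1.

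The first mESC Q50 library stood apart in its tRNAs. It held 6512 CPM of mt-Ts2, 3294 of mt-Tv and 1907 of mt-Tm, against 1431, 393 and 94.9 in Q50 replicate 2. The other 10 mESC libraries lay at 1651 to 2023 for mt-Ts2, 694 to 1307 for mt-Tv and 82.3 to 246 for mt-Tm. Both Q50 libraries were high in mt-Tq, at 1753 and 2092 CPM, against 390 to 756 in the other 10 mESC libraries.

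Within mESC, the 6 genotypes were compared in an F test. Of 21 members tested, 0 were called in edgeR, where 0.0566% of 1766 genes were called; 2 members had an unadjusted p under 0.05. mt-Tq was called with library totals, DESeq2, the replicate block and a batch term (adjusted p from 5.41e-05 to 0.0347). In these fits 0.170%, 0.510%, 1.64% and 3.74% of all genes were called. The labels name no batch. The term was built here from the replicate number, with both Q20 mESC libraries placed among the first replicates. mt-Tm was called with no filter, the replicate block and the batch term, where 0.0680%, 1.64% and 3.74% of all genes were called. Its level in Q50 was high in replicate 1 only, which lay 4.51 (log2) above replicate 2 on the scale of the mESC fit.

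Within NPC, 13 of 19 members tested differed among the 6 genotypes, against 37.2% of 441 genes (edgeR F test, adjusted p under 0.05). They were both rRNAs, the tRNAs mt-Ts2, mt-Tp, mt-Tq, mt-Tl1 and mt-Tv, and the mRNAs mt-Nd1, mt-Nd2, mt-Co1, mt-Nd5, mt-Nd6 and mt-Cytb. With library totals 7 of 19 members were called, no larger a share than the 42.2% of all genes called in that fit. Without the Q20 group the count was 6, against 19.8% of all genes. It was 6, 7, 8, 8 and 7 without Q20 replicate 1, Q20 replicate 2, Q50 replicate 1, Q92 replicate 2 and Q111 replicate 1, where 22.0% to 27.2% of all genes were called. The count rose without either WT library, where a larger share of all genes was also called. mt-Rnr1, mt-Rnr2, mt-Nd2, mt-Tp and mt-Ts2 were called in all 20 alternative fits. The neural progenitor markers also differed among the NPC genotypes, with 6 of the 9 tested called in the F test. Summed over the list, the lower and higher library were at 389 and 648 CPM for WT and 446 and 622 for KO. The knock-in pairs were 155 and 185 (Q20), 730 and 1072 (Q50), 369 and 377 (Q92) and 405 and 428 (Q111). Against WT, 5 were lower in Q20, Mir181a-1 and Mir181a-2 were higher in Q50, Tnc was lower in Q111, and 0 were called in KO or Q92. Their part in the differences of the members was not tested. The NPC member levels below are CPM on the scale of this fit, and the orders of genotypes drawn from them hold for that scale. The share of NPC library counts from mitochondrial genes was 2.42% ± 0.513 in WT, 2.75% ± 0.379 in KO, 3.25% ± 0.104 in Q20, 3.20% ± 0.572 in Q50, 2.07% ± 0.123 in Q92 and 3.69% ± 0.117 in Q111 (SD, n = 2).

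mt-Rnr1 was 4764 and 3605 CPM in the WT NPC libraries and 5513 and 3745 in KO. Q20 had 6130 and 5960, Q50 had 8452 and 7484, Q92 had 3972 and 3744, and Q111 had 12255 and 11761 (F test adjusted p = 3.47e-06). The Q111 libraries were the highest, Q50 came next, and Q92 lay within the range of WT and KO. mt-Rnr2 was 15255 and 9695 in WT, 13098 and 10612 in KO, while Q20 had 14799 and 15950, Q50 had 19347 and 19108, Q92 had 9571 and 8731, and Q111 had 19706 and 18579 (adjusted p = 0.000345). For mt-Rnr2 the Q50 and Q111 libraries overlapped each other and lay above all others on this scale. With library totals the Q50 libraries no longer did so, at 15510 ± 2052 CPM against 14940 ± 1100 in Q20 (SD, n = 2). For mt-Rnr1 the library totals gave 6458 ± 1346 in Q50, 5869 ± 4.64 in Q20 and 10707 ± 505 in Q111.

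mt-Ts2 was lowest in Q92. Its levels were 3486 and 2298 CPM in WT, 2509 and 2512 in KO, and the knock-in pairs were 3287 and 3262 (Q20), 4056 and 4048 (Q50), 1200 and 1095 (Q92) and 2137 and 2204 (Q111) (adjusted p = 1.09e-05). mt-Tp was 114 and 91.9 CPM in WT, 110 and 113 in KO, and the knock-in pairs were 304 and 219 (Q20), 179 and 173 (Q50), 118 and 110 (Q92) and 343 and 280 (Q111) (adjusted p = 0.000254). Q20, Q50 and Q111 lay above WT, KO and Q92 for mt-Tp without overlap. mt-Tq was 3363 and 1377 CPM in WT, 3717 and 2077 in KO, and the knock-in pairs were 5604 and 5113 (Q20), 4447 and 2840 (Q50), 1572 and 1739 (Q92) and 3763 and 4367 (Q111) (adjusted p = 0.00623). The WT, KO and Q50 libraries spread widely for mt-Tq.

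Among the mRNAs, mt-Nd2 was 144 and 224 CPM in WT, 124 and 254 in KO, and the knock-in pairs were 111 and 107 (Q20), 381 and 493 (Q50), 124 and 91.8 (Q92) and 204 and 213 (Q111) (adjusted p = 0.000665). The Q50 libraries lay above all others. mt-Co1 was 310 and 289 CPM in WT, 227 and 276 in KO, and the knock-in pairs were 313 and 283 (Q20), 425 and 473 (Q50), 206 and 133 (Q92) and 402 and 388 (Q111) (adjusted p = 0.00371). Here Q50 and Q111 were highest and Q92 lowest, with no overlap with WT. The complex I mRNA mt-Nd1 was 136 and 211 CPM in WT and 328 and 360 in Q50 (F test adjusted p = 0.0327). Its means in the other groups were 219 ± 35.2 in KO, 172 ± 21.7 in Q20, 209 ± 1.44 in Q92 and 247 ± 28.9 in Q111 (SD, n = 2). The F-test call of mt-Nd1 was lost in 12 of 20 alternative fits.

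The 4 knock-in groups were then set against WT in the same fit, a step chosen after the F test was seen. They share the WT libraries, so the 4 comparisons are not independent. The NPC errors against WT, KO included, come from 1 estimate of spread per gene over the 6 genotypes. The replicate pairs spread unequally. Over the members, chi-square per degree of freedom between replicates ran from 2.00 in Q92 to 36.9 in WT. For mt-Rnr2, replicate 1 minus replicate 2 (log2) was 0.65 in WT and 0.30 in KO. It was -0.11 in Q20, 0.02 in Q50, 0.13 in Q92 and 0.08 in Q111. The errors may thus be too small for WT. In Q20, 3 members were higher and 0 lower, against 8.62% of genes higher and 4.08% lower: mt-Rnr1 (log2 0.53 ± 0.17, adjusted p = 0.0471), mt-Tq (1.17 ± 0.32, 0.0255) and mt-Tp (1.33 ± 0.26, 0.00234). The Q20 NPC libraries are those that carried stem cell markers, and 5 of the 9 neural progenitor markers tested were lower in them. Of the 14 stem cell markers, 10 had a count in these libraries, while Mir294, Nanog, Zfp42 and Esrrb were at 0. The part of cell makeup in these values was not tested. In Q50, 5 were higher and 0 lower, against 5.22% of genes higher and 1.36% lower: mt-Rnr1 (0.93 ± 0.17, adjusted p = 0.00732), mt-Rnr2 (0.62 ± 0.16), mt-Nd1 (1.00 ± 0.26), mt-Nd2 (1.25 ± 0.32) and mt-Nd6 (1.24 ± 0.35). In Q92, 2 were lower and 0 higher, against 10.2% of genes lower and 8.62% higher: mt-Ts2 (-1.33 ± 0.17, adjusted p = 0.000155) and mt-Co1 (-0.82 ± 0.25, 0.0297). The median over all genes in Q92 was 0.24, against -0.46 over the 19 members. In Q111, 3 were higher and 0 lower, against 4.99% of genes higher and 5.90% lower: mt-Rnr1 (1.52 ± 0.17, adjusted p = 4.42e-05), mt-Rnr2 (0.62 ± 0.16, 0.0213) and mt-Tp (1.58 ± 0.26, 0.000857).

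These counts rested on few libraries. Without WT replicate 1 the Q20 count was 10, of which 6 were higher and 4 lower, where 15.6% of all genes were called. It was 1 without WT replicate 2 (14.5% of genes), 0 without Q20 replicate 1 (4.54%) and 1 without Q20 replicate 2 (4.76%). The Q50 count was 1 without either Q50 library, as it was without either Q20 or either Q111 library, which share the estimate of spread, and 2 without either Q92 library, all higher, where 0.454% to 3.85% of genes were called. The Q92 count was 4 without WT replicate 1 or either KO library, 6 without WT replicate 2 and 1 without Q92 replicate 2, all lower, where 2.27% to 21.3% of genes were called. The Q111 count was 5 without WT replicate 1, all higher (5.90% of genes), and 8 without WT replicate 2, of which 6 were higher and 2 lower (25.2% of genes). The calls of mt-Ts2 in Q92 and of mt-Rnr1 in Q111 held in all 20 alternative fits, with log2 differences from -1.74 to -1.002 and from 1.03 to 1.74.

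**Figure D5:**
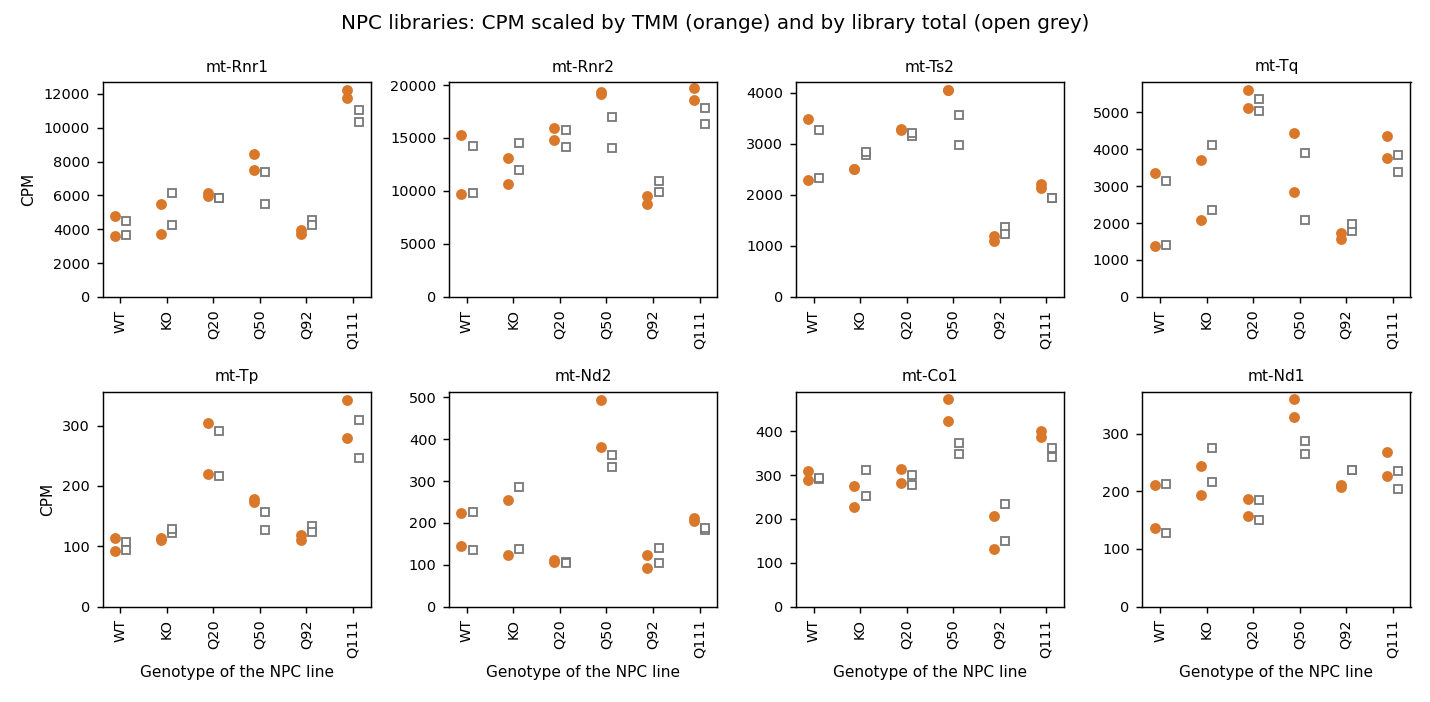
CPM (y axis) of 8 members in the 12 NPC libraries by genotype (x axis), scaled by TMM in the NPC fit (orange) and by the library total (open grey squares). mt-Rnr1 is highest in Q111, at 12255 and 11761, and mt-Ts2 lowest in Q92, at 1200 and 1095, on the TMM scale.

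Loss of Htt was tested as KO against WT. In mESC, 0 of 21 members were called in edgeR, with 0% of genes called and 0 members at an unadjusted p under 0.05; DESeq2 also called 0. The fit does not take up the order of the replicates described above, which both genotypes show: mt-Nd2 was 41.7 and 150 CPM in KO replicates 1 and 2 and 50.2 and 135 in WT, on the scale of the mESC fit. Its difference was 0.04 ± 0.74 and that of mt-Rnr1 -0.13 ± 0.45 (log2). With the replicate number as a block the errors were smaller, at -0.03 ± 0.43 and -0.16 ± 0.36, and 0 members were called. In NPC, 0 of 19 members were called in edgeR and in DESeq2, against 1.36% of genes. Before adjustment, 2 had a p under 0.05. mt-Rnr1 differed by 0.15 ± 0.17, mt-Rnr2 by -0.07 ± 0.16 and mt-Ts2 by -0.21 ± 0.17. The nearest to a call was mt-Nd6, at 0.95 ± 0.35 (adjusted p = 0.242), with 49.1 and 62.8 CPM in KO against 26.6 and 31.4 in WT. Without WT replicate 2, mt-Tc was called lower in KO (log2 -1.75). The difference of the KO effects between the cell types gave 0 calls among 20 members, with 0% of genes called and 0 members at an unadjusted p under 0.05.

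The repeat length was tested as a slope per 10 repeats over Q20, Q50, Q92 and Q111. In mESC, 0 of 21 members had a slope in edgeR or DESeq2, with 0% of genes called and 0 members below 0.05 before adjustment. There mt-Rnr1 had a slope of 0.02 ± 0.06 and mt-Rnr2 of 0.04 ± 0.05 (log2). This fit does not take up the order of the mESC replicates either, which Q20, the low end of the slope, did not follow. In NPC, 0 of 19 members had a slope in either tool, against 6.45% of genes. Before adjustment, 1 had a p under 0.05. This was mt-Ts2, at -0.12 ± 0.04 per 10 repeats (log2, adjusted p = 0.176), which was called with no filter on low counts (adjusted p = 0.0246). Its levels did not follow the order of the repeats, as Q50 was higher than Q20 and Q92 lower than Q111. mt-Rnr1 had a slope of 0.06 ± 0.05 and mt-Rnr2 of 0.00 ± 0.04. The slopes of the cell types did not differ for any of 19 members in edgeR, against 1.51% of genes, and 0 had an unadjusted p under 0.05.

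The nuclear genes that serve the mitochondrial genome were hardly covered by these libraries. Of 45 genes of its expression machinery in the table, 1 was tested between NPC and mESC: Nsun2, an RNA cytosine methyltransferase, was lower (log2 -1.46 ± 0.38, adjusted p = 0.00224). Of 20 mitochondrial tRNA synthetase genes, 1 was tested: Lars2, the leucine enzyme, was higher (0.61 ± 0.21, adjusted p = 0.0162). Of 74 nuclear genes of the respiratory chain and ATP synthase, 2 were tested and 0 called, Atp5b at -0.22 ± 0.22 and Atp5a1 at -0.39 ± 0.24. Within a cell type, 0 genes of the 3 lists were called in any genotype comparison.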

How the data were processed

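The deposited table holds raw counts per gene, not normalized, for 24 libraries; per the submitters' processing notes, CASAVA 1.8, STAR and HTSeq were used with GRCm38.p6. Adapter trimming, the use of strand and the treatment of reads with several matches are not given in the sources used here. Ensembl gene IDs were matched to GENCODE M21 (55154 of 55335 rows matched). Counts were tested with edgeR 4.0.16 (R 4.3.3) by quasi-likelihood, with TMM scaling, filterByExpr (minimum count 10, minimum total 15) and Benjamini-Hochberg adjustment over all genes tested; a call is an adjusted p under 0.05. The fit of both cell types used 24 libraries with a mean per group, the genotype fits 12 libraries of a cell type, and the slopes the knock-in libraries. The filter left 21 of the 37 members in at least 1 fit, and 16 were tested in none. A member that passed only through high libraries had to differ, so counts over tested members are not counts over all members. Alternatives were DESeq2 1.42.0, its size factors, library totals, scaling without mitochondrial genes, no filter, a replicate block, a batch term, subsets of groups and leaving out each library. As a check of the code, the fits were run on simulated data with independent libraries. That simulation held no order by replicate number such as the mESC libraries show. Members and gene lists were chosen with earlier results of these data known. Values by library are given for only some of the members with at least 2% of the counts of their class in a cell type. The others are given as ranges or fitted differences. Nuclear genes of the mitochondrial lists are named only when called, except that the 2 respiratory chain genes tested were named after their values were seen. Sequences are from GENCODE M21 transcripts.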

Additional observations from a re-analysis of the deposited data

How the results depend on the processing

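Among 13 counts of called members, 233 of 287 alternative values lay within 1.5 times the count reported. Leaving out each library gave 12 to 17 calls between NPC and mESC, 0 to 1 for genotype in mESC, 6 to 18 for genotype in NPC, 0 to 1 for KO in NPC, and 0 to 10, 1 to 5, 1 to 6 and 2 to 8 for Q20, Q50, Q92 and Q111 against WT; the other 5 counts stayed at 0. Between NPC and mESC, the WT libraries alone gave 6. For genotype in mESC, library totals (0.170% of all genes called), no filter (0.0680%), no filter with scaling recomputed (0.0340%) and DESeq2 (0.510%) each gave 1, and the batch term 2 (3.74%). For genotype in NPC, library totals gave 7 and leaving out the Q20 group 6. The slope in NPC gave 1 with no filter (0.388% of all genes), also with scaling recomputed (0.380%). The counts against WT in NPC follow with the share of all genes called in brackets. No filter with scaling recomputed gave 0 for Q20 (0.210%), 0 for Q50 (0%) and 1 for Q111 (0.189%). No filter gave 3 for Q50 (0.105%) and 1 for Q92 (0.224%). DESeq2 gave 1 for Q20 (7.48%) and 5 for Q92 (15.2%). DESeq2 size factors gave 2 for Q50 (4.31%) and 4 for Q92 (18.1%). Library totals gave 1 for Q50 (6.12%) and 1 for Q92 (12.9%). The 4 libraries alone gave 0 (4.99%), 0 (0%), 1 (11.9%) and 1 (1.83%) for Q20, Q50, Q92 and Q111. The cause was not tested, except that subsets hold fewer libraries. No filter with scaling recomputed also turned mt-Tv, mt-Ti, mt-Ts2 and mt-Tt into lower calls in NPC against mESC and was, with the replicate subsets and the knock-in comparisons, chosen after seeing the data. Of 1023 values for members in the comparisons that called them, 812 kept direction and call, 210 lost the call and 1 reversed: mt-Tm against the first mESC replicates, at -0.059. Of 216 values for the 6 members not called between NPC and mESC, 28 had the other sign, 2 of them as calls (mt-Ts2 with that scaling and against the first mESC replicates, at -0.36); mt-Tt was at 0.52 against the first and mt-Cytb at -0.03 against the second. The libraries share only a replicate number: deviations of same-numbered groups correlated above 0.1 in 10 of 15 mESC pairs, the 10 without Q20 (lowest 0.408), and in 4 of 15 NPC pairs. With the replicate block the counts, with the share of all genes called in brackets, were 15 between NPC and mESC (61.2%), 2 for genotype in mESC (1.64%) and 15 for genotype in NPC (39.2%). They were 4 for Q20 (15.2%), 5 for Q50 (7.71%), 4 for Q92 (20.9%) and 5 for Q111 (13.6%), and 0 elsewhere. Depth limits the members with few counts: 3 counts are 8.77 CPM in the smallest NPC library.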

Other observations

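The summed level of the mitochondrial tRNAs was followed most closely, over the 24 libraries and among 473 nuclear genes with a mean of at least 10 CPM, by 3 small nucleolar RNA genes. They were Gm24119 (Spearman's rho 0.789), Snord61 (0.724) and Gm24507 (0.700). Within the 12 mESC libraries rho was 0.08, 0.34 and 0.29, and within the 12 NPC libraries 0.87, 0.62 and 0.73. The values share libraries, depth and the difference between cell types, and are a description.

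Gm28438, the chromosome 1 copy of mt-Nd3, differed among the NPC genotypes in the edgeR F test (adjusted p = 0.000289). Against WT it was lower in Q20 (log2 -1.05 ± 0.32, adjusted p = 0.0406) and in Q92 (-1.03 ± 0.32, adjusted p = 0.0355) and higher in Q50 (1.08 ± 0.31, adjusted p = 0.0444). In Q111 it did not pass (0.10 ± 0.31, adjusted p = 0.746). In mESC it was 59.1 to 138 CPM in the first replicates of the 5 genotypes other than Q20 and 266 to 411 in the second, and 126 and 133 in the Q20 libraries.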
